A study of Mus musculus with 12 samples.

Results

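The genes examined were 10: the 7 ligands of the epidermal growth factor (EGF) receptor, *Areg*, *Ereg*, *Hbegf*, *Tgfa*, *Epgn*, *Btc* and *Egf*, and 3 receptors of the same family, *Egfr*, *Erbb2* and *Erbb3*. They were taken by name, and 9 of the 10 were measured here among 18193 genes on the array, the 6 ligands other than *Areg* and the 3 receptors. No probe set of the annotation used here belonged to *Areg*, which encodes amphiregulin and is not analysed here. The 9 genes had 20 probe sets, each annotated to 1 gene alone, and the set with the highest mean signal over all arrays stood for its gene.

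Total RNA of whole mouse skin had been hybridized to 12 arrays, 3 in each of 4 groups. The groups were AhR-/- mice treated with imiquimod (IMQ) cream for 2 days (AhR KO IMQ), AhR+/- mice treated in the same way (AhR HET IMQ), and untreated mice of each genotype, taken at day 0 (AhR KO untreated and AhR HET untreated). The AhR (aryl hydrocarbon receptor) is a transcription factor that binds ligands from the environment, the diet and the skin itself, and IMQ, an agonist of Toll-like receptors, causes a psoriasis-like inflammation when spread on shaved back skin. The AhR+/- mice were littermate controls with 1 intact *Ahr* allele, so no AhR+/+ skin was compared, and the AhR KO lacks the receptor in every cell type. Untreated skin was not given a control cream, so imiquimod, the cream and its application cannot be told apart. The sources used here do not say whether the untreated mice were shaved, so shaving cannot be told apart from IMQ either, and they give neither the age nor the sex of the mice on the arrays.

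EGF receptor ligands are made as membrane proteins, which metalloproteases of the ADAM family cut free to act on the same or a neighbouring cell. Amphiregulin, TGF-alpha and EGF bind EGFR (also called ERBB1), whereas HB-EGF, betacellulin and epiregulin bind both EGFR and ERBB4. ERBB2 binds no ligand of its own and ERBB3 has a weak kinase, so both signal in pairs with other family members. In skin the pathway keeps basal keratinocytes dividing, drives wound closure and shapes hair follicles, and mice that lack *Tgfa* or carry a weak *Egfr* allele have wavy hair.

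*Epgn*, *Ereg*, *Areg* and *Btc* lie side by side on mouse chromosome 5 in this order, with 0 other protein-coding genes between them in the RefSeq annotation of GRCm38.p6. The bases before the start of *Epgn* and *Btc* are shown because these genes stood at the ends of this cluster and moved in opposite directions after IMQ. Capitals mark GCGTG, the core that the AhR and its partner ARNT bind, searched on both strands, and the windows are the 250 bases before each RefSeq start in GRCm38.p6, 5′ to 3′ on the gene's own strand, at chr5:91027267-91027516 (plus strand) for *Epgn* and chr5:91402995-91403244 (minus strand) for *Btc*.
Epgn: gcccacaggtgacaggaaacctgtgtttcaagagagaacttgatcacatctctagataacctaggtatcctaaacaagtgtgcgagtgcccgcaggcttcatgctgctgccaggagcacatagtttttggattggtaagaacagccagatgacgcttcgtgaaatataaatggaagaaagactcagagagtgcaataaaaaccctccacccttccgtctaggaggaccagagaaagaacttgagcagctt
Btc: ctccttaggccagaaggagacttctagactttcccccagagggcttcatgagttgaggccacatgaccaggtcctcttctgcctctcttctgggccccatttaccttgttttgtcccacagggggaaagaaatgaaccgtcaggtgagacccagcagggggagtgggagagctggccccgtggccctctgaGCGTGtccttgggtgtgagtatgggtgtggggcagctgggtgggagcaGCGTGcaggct
The *Btc* window held 2 matches, whose first bases lay 59 and 11 bases before the start, and the *Epgn* window held 0. Of 32851 promoters of this length, 28.2% held GCGTG. The site of AP-1, TGANTCA, also searched on both strands, was found in 0 of these 2 windows and in 6.75% of all promoters. Among the other windows searched, that of *Tgfa*, which rose after IMQ, held 1 GCGTG, and those of *Areg*, *Egf*, *Egfr* and *Erbb2* held 0. A match describes these letters only, and binding was not measured.

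IMQ treatment was followed by large rises of *Epgn* and *Hbegf*, a smaller rise of *Tgfa* and a fall of *Btc* in both genotypes. The *Tgfa* call in AhR HET skin was lost in 10 of 16 alternative settings. *Ereg* rose 4.3-fold in AhR HET skin, and in AhR KO skin its signal after IMQ was 1.09 times that without treatment, with no call. *Egf* and *Erbb3* were called lower in AhR KO skin, and *Egfr* and *Erbb2* were called in neither genotype. Calls needed a change of 1.5-fold or more with an adjusted p under 0.05, from limma fitted to all 18193 genes with the p-values adjusted by Benjamini and Hochberg, and every adjusted p below comes from this fit unless another is named. In AhR KO skin 6 of the 9 genes were called, 3 higher and 3 lower, where 22.7% of all genes were called, 10.6% higher and 12.1% lower. In AhR HET skin 5 of the 9 were called, 4 higher and 1 lower, where 9.05% of all genes were called, 5.22% higher and 3.83% lower. The IMQ and untreated arrays did not overlap for 3 higher and 3 lower genes in AhR KO skin, where 21.7% and 21.1% of all genes did not. They did not overlap for 4 higher and 2 lower genes in AhR HET skin, where 15.4% and 14.4% of all genes did not. Signals are on the log2 scale of RMA, on which a difference of 1 is a doubling, and they are not comparable between genes. The signals came from whole skin, in which fewer cells of a type and less RNA per cell cannot be told apart.

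**Figure D1:**
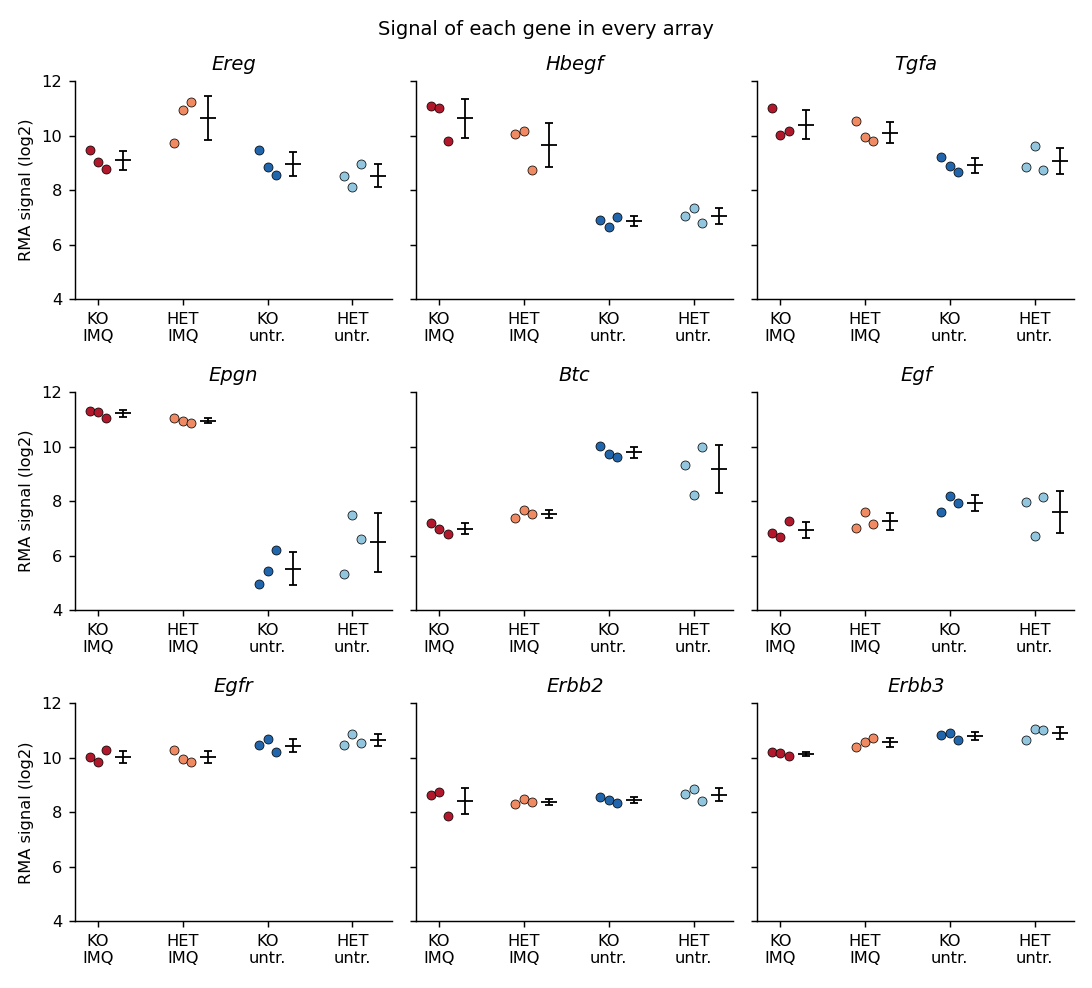
RMA signal (log2, vertical axis) of the 9 genes in the 12 arrays, by group; points are arrays and bars the mean with its SD (n = 3). *Epgn* and *Hbegf* were higher and *Btc* lower in every IMQ array than in every untreated array of either genotype, and *Ereg* had its 3 highest signals in AhR HET IMQ skin.

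*Epgn* encodes epigen, a ligand that binds EGFR with low affinity. Its signal was 11.31, 11.29 and 11.05 in the AhR KO IMQ arrays, against 4.96, 5.44 and 6.2 in AhR KO untreated arrays. It was 11.06, 10.93 and 10.88 in AhR HET IMQ skin, against 5.34, 7.5 and 6.63 in AhR HET untreated skin. The IMQ arrays of both genotypes lay together between 10.88 and 11.31, and the untreated ones were low and scattered. The change was 5.68 in AhR KO skin (standard error 0.43, adjusted p = 3.34e-06), a 51.4-fold rise, and 4.47 in AhR HET skin (standard error 0.43, adjusted p = 5.05e-05), a 22.1-fold rise. *Epgn* was called in all 17 alternative settings in AhR KO skin, at 5.4 to 6.02, and in all 16 in AhR HET skin, at 3.89 to 4.97. Signals near 5 are dim on these arrays and no detection calls were used, so the size of the fold rests on the dim untreated arrays.

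*Hbegf* encodes heparin-binding EGF-like growth factor, which keratinocytes release on wounding. It measured 11.08, 11.01 and 9.8 in AhR KO IMQ skin, against 6.92, 6.66 and 7.03 in AhR KO untreated skin. The AhR HET IMQ arrays gave 10.04, 10.18 and 8.72, against 7.04, 7.35 and 6.78 in AhR HET untreated skin. Replicate 3 was the lowest of the 3 IMQ arrays in each genotype, yet it stood above all 6 untreated arrays. The rise was 3.76 in AhR KO skin (standard error 0.39, adjusted p = 3.48e-05), or 13.6-fold, and 2.59 in AhR HET skin (standard error 0.39, adjusted p = 0.00139), or 6.01-fold. It was called in every alternative setting, at 2.93 to 4.18 in AhR KO skin and 2.32 to 3.05 in AhR HET skin. A second probe set rose by 3.91 in AhR KO skin and by 2.84 in AhR HET skin, and was called in both when all 34945 probe sets were tested.

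*Tgfa* encodes TGF-alpha, an autocrine growth factor of keratinocytes. Its signal was 11.02, 10.03 and 10.16 in AhR KO IMQ skin, against 9.2, 8.89 and 8.65 in AhR KO untreated skin. It was 10.55, 9.95 and 9.81 in AhR HET IMQ skin, against 8.83, 9.61 and 8.75 in AhR HET untreated skin. The groups did not overlap in either genotype. The rise was 1.49 in AhR KO skin (standard error 0.30, adjusted p = 0.0033) and 1.04 in AhR HET skin (standard error 0.30, adjusted p = 0.048). The AhR HET call was lost without untreated replicate 1 (0.92) or 3 (0.88) or without IMQ replicate 1 (0.81), 2 (1.11) or 3 (1.18), and when its probe sets were averaged (0.48). It was lost too with quantile normalization again, in the 2 AhR HET groups alone and with RNA integrity in the fit (as below). The rank product, the test the study's methods name, called *Tgfa* in neither genotype. Its calls here needed a proportion of false positives under 0.01, a lower threshold than the 0.05 used with limma. The other 2 probe sets of *Tgfa*, with mean signals of 6.61 and 6.04, changed by 0.53 and 0.20 in AhR KO skin and by 0.21 and 0.19 in AhR HET skin, and neither was called.

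*Btc* encodes betacellulin, and its transcript ran the other way. It measured 7.2, 6.98 and 6.79 in AhR KO IMQ skin, against 10.01, 9.73 and 9.63 in AhR KO untreated skin. In AhR HET skin it measured 7.38, 7.67 and 7.54 after IMQ, against 9.34, 8.24 and 9.98 without treatment. Every IMQ array lay below every untreated array of its genotype, and AhR HET replicate 2 was the lowest untreated array. The difference was -2.80 in AhR KO skin (standard error 0.32, adjusted p = 8e-05), a 6.95-fold fall, and -1.66 in AhR HET skin (standard error 0.32, adjusted p = 0.00719), a 3.15-fold fall. AhR HET untreated replicate 2 was also the array with the highest mean of hair follicle growth-phase keratins and other markers of that stage, 12.93 against 8.67 and 9.11 in the other untreated AhR HET arrays. The fall of *Btc* in AhR HET skin lost its call in the fit to the 2 AhR HET groups alone (adjusted p = 0.0621). The rank product did not call it either. The second probe set of *Btc* fell by 2.96 in AhR KO skin and by 1.33 in AhR HET skin, and was called in both.

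*Egf*, the gene of EGF itself, measured 6.84, 6.7 and 7.27 in AhR KO IMQ skin, against 7.62, 8.2 and 7.93 in AhR KO untreated skin. The difference of -0.98 was called (standard error 0.32, adjusted p = 0.0398), but not without AhR KO untreated replicate 1 (-1.13), 2 (-0.84) or 3 (-0.97), without AhR KO IMQ replicate 1 (-0.93) or 2 (-0.86), or with RNA integrity in the fit (-0.79, as given further on). The rank product did not call this difference either. *Egf* in AhR HET skin measured 7.01, 7.6 and 7.17 after IMQ, against 7.96, 6.72 and 8.15 without treatment. The difference of -0.35 was not called (adjusted p = 0.565), and without the low untreated replicate 2 it was -0.80 and called (adjusted p = 0.0344).

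**Figure D2:**
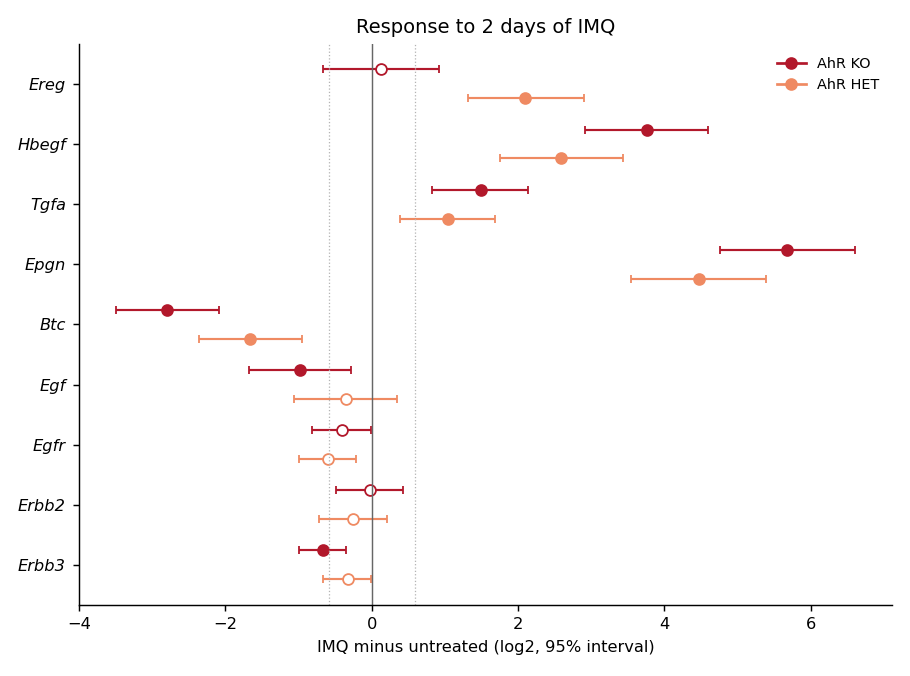
Change after 2 days of IMQ (IMQ minus untreated, log2, horizontal axis) of each gene in AhR KO and AhR HET skin, with 95% intervals from limma; filled points were called and dotted lines mark a 1.5-fold change. *Ereg* was called in AhR HET skin alone, at 2.10, and *Epgn* had the highest changes, 5.68 and 4.47.

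Of the receptors, *Erbb3* was the 1 called after IMQ, and in AhR KO skin alone. *Egfr*, the receptor of all these ligands, measured 10.03, 9.83 and 10.27 in AhR KO IMQ skin, against 10.47, 10.68 and 10.2 in AhR KO untreated skin, and the groups overlapped (difference -0.41, 95% interval -0.81 to -0.01, adjusted p = 0.121). It measured 10.29, 9.97 and 9.84 in AhR HET IMQ skin, against 10.46, 10.89 and 10.56 in AhR HET untreated skin. All 3 treated AhR HET arrays were lower, by 0.60 on average (a difference of -0.60), and the adjusted p of 0.0558 missed the threshold. *Egfr* was called in AhR HET skin in 3 of 16 alternative settings. These were without AhR HET untreated replicate 1, at -0.69 (adjusted p = 0.0493), with quantile normalization again and with RNA integrity in the fit (as given further on). Of the 6 other probe sets of *Egfr* 1 was called in either genotype: it was higher after IMQ in AhR HET skin, by 0.68 (adjusted p = 0.0387 over all probe sets), opposite in sign to the set that stood for the gene. The mean of the 7 sets changed by 0.03 in AhR KO skin.

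*Erbb3* measured 10.2, 10.16 and 10.05 in AhR KO IMQ skin, against 10.85, 10.92 and 10.65 in AhR KO untreated skin, and the difference of -0.67 was called (standard error 0.15, adjusted p = 0.0055). In AhR HET skin it measured 10.4, 10.59 and 10.73 after IMQ, against 10.66, 11.05 and 11.01 without treatment, and the difference of -0.33 was not called (adjusted p = 0.186). A second, dimmer set of *Erbb3*, with a mean signal of 4.73, changed by 0.12 in AhR KO skin. The call was lost when both sets were averaged (-0.28) and with the rank product. *Erbb2* measured 8.65, 8.75 and 7.86 in AhR KO IMQ skin, against 8.57, 8.45 and 8.34 in AhR KO untreated skin. The AhR HET arrays gave 8.29, 8.5 and 8.39 after IMQ, against 8.68, 8.87 and 8.4 without treatment. Neither change of *Erbb2* was called, and their 95% intervals ran between -0.49 and 0.43 in AhR KO skin and between -0.72 and 0.21 in AhR HET skin.

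**Figure D3:**
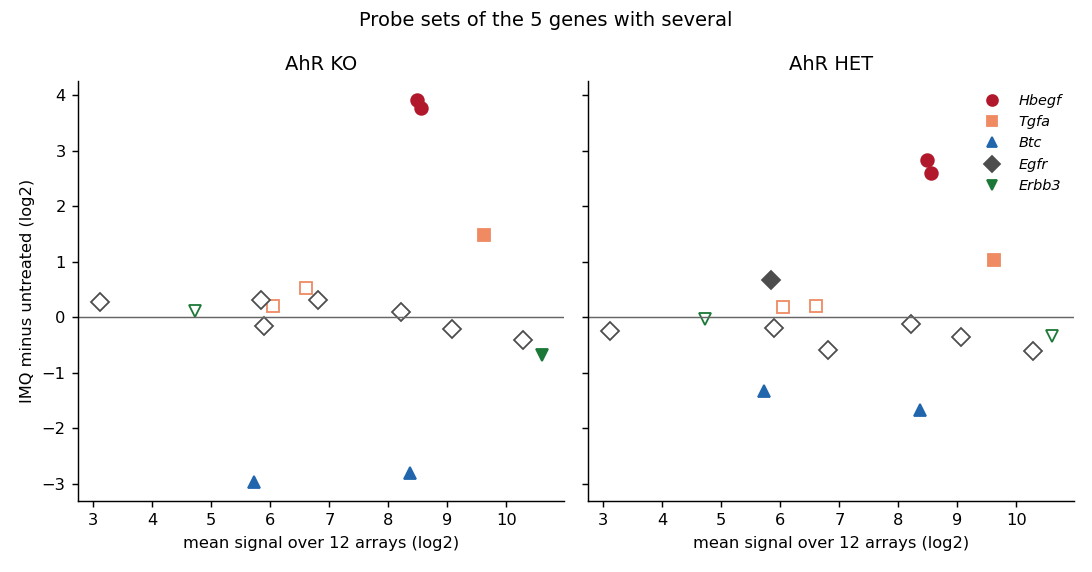
Change after IMQ (log2, vertical axis) of every probe set of the 5 genes with several, against its mean signal over the 12 arrays (log2, horizontal axis), in AhR KO skin on the left and AhR HET skin on the right; filled symbols were called over all 34945 probe sets. Both sets of *Hbegf* and both of *Btc* moved alike, and the dim sets of *Tgfa* and *Erbb3* changed by -0.03 to 0.53.

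Between the genotypes on day 2, *Ereg* was the 1 of 9 genes called, and it was lower in AhR KO skin. Of all genes, 3.98% were called in this comparison, 1.86% as lower. *Ereg* encodes epiregulin, an autocrine growth factor of keratinocytes in culture. Its signal was 9.46, 9.04 and 8.76 in AhR KO IMQ skin, against 9.73, 10.95 and 11.23 in AhR HET IMQ skin. Every AhR KO array lay below every AhR HET array, and AhR HET replicate 1 lay closer to the highest AhR KO array than to the other AhR HET arrays. Without treatment *Ereg* measured 9.46, 8.86 and 8.57 in AhR KO skin and 8.53, 8.11 and 8.96 in AhR HET skin, and these groups overlapped. The difference on day 2 was -1.55 (standard error 0.37, 95% interval -2.34 to -0.76, adjusted p = 0.0354), which is 2.93-fold lower in AhR KO skin.

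The response of *Ereg* to IMQ was 0.13 in AhR KO skin (standard error 0.37, adjusted p = 0.829) and 2.10 in AhR HET skin (standard error 0.37, adjusted p = 0.00362). The responses differed by -1.98, AhR KO minus AhR HET (standard error 0.52, 95% interval -3.1 to -0.85), with an unadjusted p of 0.00229 in limma and an adjusted p of 0.0814, and this difference was not called. The AhR HET rise was called in all 16 alternative settings, at 1.81 to 2.56. The lower signal in AhR KO skin on day 2 ran from -2.00 to -1.25 over 17 settings and lost its call in 8 of them. These included the fits without AhR HET IMQ replicate 2 (-1.39, adjusted p = 0.163) and without AhR HET IMQ replicate 3 (-1.25, adjusted p = 0.167). Leaving out AhR KO IMQ replicate 1 gave -1.74 (adjusted p = 0.0546), replicate 2 gave -1.53 (adjusted p = 0.139) and replicate 3 gave -1.39 (adjusted p = 0.0674). Without AhR HET IMQ replicate 1 the adjusted p was 0.00306, and the difference between the responses was then called, at -2.43 (adjusted p = 0.0108). The rank product also called *Ereg* lower in AhR KO IMQ skin (proportion of false positives 0.00805).

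Other measures differed between the same arrays. The mean signal of neutrophil markers (4 of 7 measured, all 4 called higher in AhR KO than in AhR HET skin on day 2) was 9.94 to 10.13 in AhR KO IMQ skin, and 8.13, 6.83 and 6.39 in AhR HET IMQ replicates 1, 2 and 3, the order in which *Ereg* was lowest to highest there. It was 6.34 to 6.38 in AhR KO untreated skin and 5.86 to 6.2 in AhR HET untreated skin. The mean of keratinocyte markers (7 of 8 measured) was 12.12 to 12.28 in AhR KO IMQ skin and 12.68 to 13.16 in AhR HET IMQ skin, and its lowest AhR HET IMQ value was that of replicate 1. Of these 7 markers 0 were called higher and 2 lower in AhR KO than in AhR HET skin on day 2. After IMQ 2 were called higher and 2 lower in AhR KO skin, and 2 higher and 0 lower in AhR HET skin. The 3′ probe set of the *Gapdh* control exceeded the 5′ set, a gap that grows as RNA is degraded, by 1.17 (log2) in AhR KO IMQ replicate 1, by 1.52 in replicate 2, and by 0.14 to 0.53 elsewhere. With this difference as a covariate the *Ereg* difference on day 2 was -1.95 (adjusted p = 0.254). The wide gaps lay in AhR KO IMQ replicates 1 and 2 alone, so few arrays tell this covariate from that group. A call lost with the covariate therefore does not by itself show a smaller change. With AhR KO IMQ replicate 3 as the only array of its group the *Ereg* difference was -1.87. That fit takes the spread from the other 3 groups and assumes that the lone array varies as they do, so its lost calls say nothing of a weaker change. In it 3 of the 9 genes were called after IMQ in AhR KO skin, *Hbegf*, *Epgn* and *Btc*, and *Tgfa* (1.25), *Egf* (-0.65) and *Erbb3* (-0.76) were not. The part of neutrophils, of keratinocytes and of RNA integrity in the *Ereg* result was not tested beyond these values.

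The remaining genes were not called between the genotypes on day 2. *Hbegf* was 0.99 higher in AhR KO IMQ skin (95% interval 0.15 to 1.83, adjusted p = 0.17), with groups that overlapped, and it was called without AhR KO IMQ replicate 3, at 1.40 (adjusted p = 0.0393). Its signal there was 11.08 and 11.01 in replicates 1 and 2, the arrays with the widest *Gapdh* gap, and 9.8 in replicate 3. The difference ran from 0.16 to 1.40 over 17 alternative settings. *Btc* and *Erbb3* were lower in every AhR KO IMQ array than in every AhR HET IMQ array, by a difference of -0.54 (95% interval -1.24 to 0.17, adjusted p = 0.367) for *Btc* and -0.43 (95% interval -0.76 to -0.11, adjusted p = 0.12) for *Erbb3*. Together with *Ereg*, 3 of 9 genes had groups that did not overlap and lower AhR KO signals, where 15.0% of all genes did, and 0 of 9 had higher AhR KO signals without overlap, where 18.0% of all genes did. The second *Btc* set differed by -1.14 (adjusted p = 0.0625 over all probe sets). *Epgn*, at 0.26 (95% interval -0.67 to 1.18), and *Tgfa*, at 0.30 (95% interval -0.35 to 0.96), had overlapping groups, as did *Egf*, *Egfr* and *Erbb2*.

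In untreated skin 0 of the 9 genes were called between the genotypes in limma, where 0.0055% of all genes were, and 1 of the 9 had an unadjusted p under 0.05. That gene was *Epgn*, with a difference of -0.96 (95% interval -1.89 to -0.03, adjusted p = 0.756). Without AhR HET untreated replicate 1, the lowest of its group for *Epgn*, the difference was -1.54 and called (adjusted p = 0.0465). The groups of untreated arrays overlapped for all 9 genes, where 5.03% of all genes were higher and 3.78% lower in AhR KO skin without overlap. The mean of 8 growth-phase hair follicle markers did not overlap there, at 5.89 to 7.78 in AhR KO untreated skin and 8.67 to 12.93 in AhR HET untreated skin, and 0 of the 8 were called, with a median difference of -3.21. After IMQ it was 5.57 to 6.35 in AhR KO skin and 5.92 to 8.48 in AhR HET skin, and 4 of the 8 markers were called lower after IMQ in AhR HET skin (median change -3.21), against 0 in AhR KO skin (-0.77). The part of this shift in the genotype and IMQ values of the 9 genes was not tested.

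The difference between the IMQ responses, AhR KO minus AhR HET, was called for 0 of the 9 genes in limma, where 1.32% of all genes were called, 0.539% higher and 0.786% lower, and 2 of the 9, *Ereg* and *Btc*, had an unadjusted p under 0.05. *Btc* fell further in AhR KO skin by a difference of -1.14 (95% interval -2.13 to -0.15, adjusted p = 0.221). The difference was 1.22 for *Epgn* (95% interval -0.09 to 2.53, adjusted p = 0.325) and 1.17 for *Hbegf* (95% interval -0.01 to 2.36, adjusted p = 0.291). For *Hbegf* it ran from 0.34 to 1.59 over 21 alternative settings. Without AhR HET untreated replicate 1 that of *Epgn* was called, at 1.79 (adjusted p = 0.0351). In data simulated with changes of known size this test found 25% of 2-fold and 80% of 4-fold differences between responses.

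**Figure D4:**
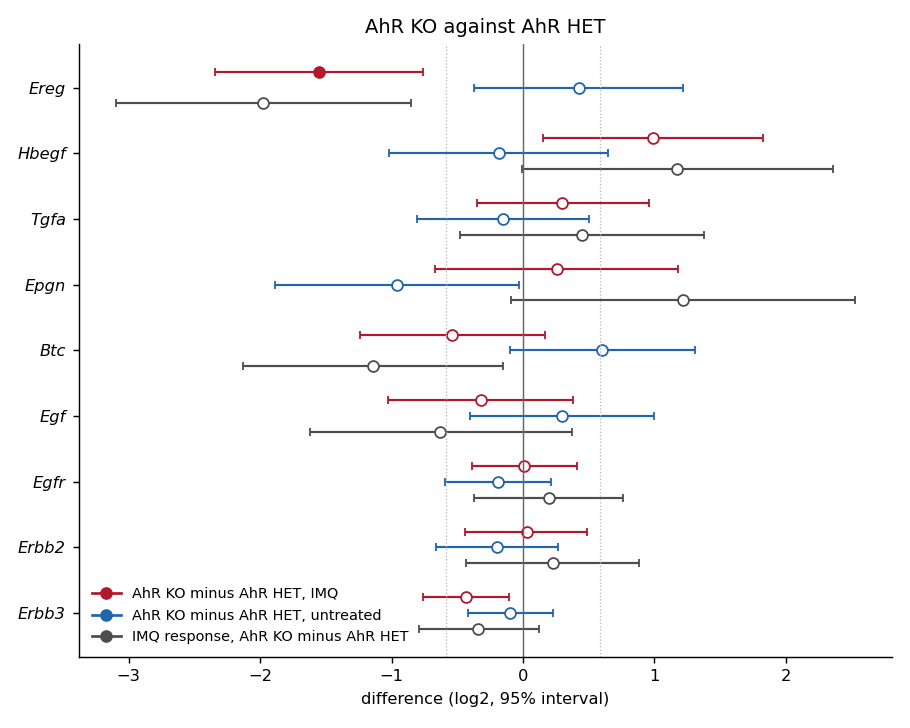
Difference of each gene between AhR KO and AhR HET skin on day 2 of IMQ and without treatment, and between the IMQ responses of the genotypes (log2, horizontal axis), with 95% intervals from limma; filled points were called and dotted lines mark a 1.5-fold difference. The 1 filled point is *Ereg* on day 2, at -1.55.

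The other genes of the pathway were read from 5 lists of 58 genes, of which 53 were measured. Of all genes, 22.7% were called after IMQ in AhR KO skin and 9.05% in AhR HET skin, and 3.98% between the genotypes on day 2. The neuregulins are the ligands of ERBB3 and ERBB4. Of 5 genes, *Erbb4* and 4 neuregulins, *Nrg1* was the 1 called after IMQ, with a rise of 2.61 in AhR KO skin (adjusted p = 0.000356) and 1.52 in AhR HET skin (adjusted p = 0.0231). Its signal was 7.15, 6.34 and 7.24 in AhR KO IMQ skin, against 4.04, 4.03 and 4.82 in AhR KO untreated skin, and 6.98, 6.15 and 5.35 in AhR HET IMQ skin, against 4.61, 4.94 and 4.37 in AhR HET untreated skin. The AhR HET call was lost without IMQ replicate 1 (1.11) or 2 (1.52) or untreated replicate 3 (1.38), and with the rank product. *Nrg4* was lower in AhR KO IMQ skin than in AhR HET IMQ skin, at 5.58, 5.89 and 6.05 against 6.62, 7.07 and 6.92, a difference of -1.03 (adjusted p = 0.0261). That call was lost without AhR HET IMQ replicate 2 (-0.93) or 3 (-1.01) or AhR KO IMQ replicate 1 (-0.90) or 2 (-1.06), with the *Gapdh* covariate (-0.92), with AhR KO IMQ replicate 3 alone (-0.82) and with the rank product, and the difference between the *Nrg4* responses, -1.38, was not called (adjusted p = 0.0568). After IMQ *Nrg4* changed by -0.64 in AhR KO skin (adjusted p = 0.0514) and by 0.74 in AhR HET skin (adjusted p = 0.0569), with no call. Quantile normalization again and the replicate block called it in both genotypes. In AhR KO skin it was also called at a mean signal of at least 5 and without AhR KO untreated replicate 2 or AhR KO IMQ replicate 3. In AhR HET skin it was also called with the mean of probe sets.

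Ligand shedding was represented by 7 genes of ADAM proteases, their helpers and an inhibitor. After IMQ, 22.7% of all genes were called in AhR KO skin and 9.05% in AhR HET skin. Of the 7 shedding genes *Timp3*, which encodes an inhibitor of ADAM17, was the 1 called in either genotype. It measured 9.23, 9.08 and 9.45 in AhR KO IMQ skin, against 11.6, 11.9 and 11.87 in AhR KO untreated skin, and 9.72, 10.14 and 10.18 in AhR HET IMQ skin, against 12.27, 11.15 and 11.83 in AhR HET untreated skin. The difference was -2.54 in AhR KO skin (adjusted p = 1.94e-05) and -1.74 in AhR HET skin (adjusted p = 0.000891). In AhR HET skin the rank product did not call it (proportion of false positives 0.0113). *Rhbdf1* and *Rhbdf2*, helpers of ADAM17, changed by -0.45 (adjusted p = 0.154) and 0.58 (adjusted p = 0.0318, under the fold minimum) in AhR KO skin. *Rhbdf1* was called there without AhR KO untreated replicate 3. *Rhbdf2* was called there without AhR KO IMQ replicate 3, with quantile normalization again and with median centring.

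Among 13 inhibitors of the receptors and of the kinase cascade below them, 1 was called higher and 4 lower in AhR KO skin after IMQ, where 22.7% of all genes were called. In AhR HET skin 0 were called higher and 2 lower (4 called without AhR HET untreated replicate 2), where 9.05% of all genes were called. With the rank product 0 were called in either genotype or between the genotypes on day 2, where limma called 3, and with AhR KO IMQ replicate 3 alone 3 were called in AhR KO skin and 0 between the genotypes. *Lrig1* and *Lrig3* encode membrane proteins of 1 family, of which LRIG1 binds ERBB receptors and promotes their breakdown. *Lrig1* measured 8.92, 8.75 and 9.15 in AhR KO IMQ skin, against 10.54, 10.55 and 10.62 in AhR KO untreated skin, whereas it measured 9.73, 10.23 and 10.31 in AhR HET IMQ skin, against 10.4, 10.61 and 10.35 in AhR HET untreated skin. The change was -1.63 in AhR KO skin (adjusted p = 3.75e-05) and -0.37 in AhR HET skin (adjusted p = 0.2), and the difference between the responses was called at -1.26 (adjusted p = 0.028). Each fit without 1 of 8 arrays lost that call, at -1.28 to -1.15, namely the fits without AhR KO IMQ replicate 1 or 2, AhR HET IMQ replicate 2 or 3, any AhR KO untreated replicate or AhR HET untreated replicate 3. The call was also lost with the mean of probe sets (-0.73), the *Gapdh* covariate (-1.03) and AhR KO IMQ replicate 3 alone (-1.05). *Lrig1* was also lower in AhR KO than in AhR HET skin on day 2, by a difference of -1.15 (adjusted p = 0.00309), as was *Lrig3*, by -0.97 (adjusted p = 0.00904), and both calls were lost with the *Gapdh* covariate (-0.93 for *Lrig1* and -0.90 for *Lrig3*) and with AhR KO IMQ replicate 3 alone (-0.94 and -0.90 in the same order).

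*Lrig3* fell in both genotypes, with changes of -1.79 in AhR KO skin (adjusted p = 2.05e-05) and -0.88 in AhR HET skin (adjusted p = 0.00733). *Spred2*, an inhibitor of RAF activation, fell in both genotypes, with changes of -0.77 (adjusted p = 0.000462) in AhR KO skin and -0.63 (adjusted p = 0.00489) in AhR HET skin. *Spry1*, of the Sprouty inhibitors, fell in AhR KO skin with a change of -1.06 (adjusted p = 0.00254). *Dusp6*, a phosphatase of ERK that is itself induced by ERK, rose there by 1.33 (adjusted p = 0.00128). *Spry2* was higher in AhR KO than in AhR HET skin on day 2, by 0.68 (adjusted p = 0.0386), a call lost without AhR HET IMQ replicate 1 (0.64), 2 (0.69) or 3 (0.69) or AhR KO IMQ replicate 1 (0.65) or 2 (0.60). It was lost too with the mean of probe sets (0.32), the *Gapdh* covariate (0.43), AhR KO IMQ replicate 3 alone (0.48), the replicate block (adjusted p = 0.056) and the rank product.

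Of 19 signal transducers 14 were measured. After IMQ 2 were called higher and 3 lower in AhR KO skin, where 22.7% of all genes were called. In AhR HET skin 0 were called higher and 2 lower, where 9.05% of all genes were called. With the rank product 0 of the 14 were called in either genotype. *Pik3r1*, the regulatory subunit of PI3 kinase, fell in both genotypes, with changes of -1.78 in AhR KO skin (adjusted p = 0.000198) and -1.37 in AhR HET skin (adjusted p = 0.00325). Its proportions of false positives in the rank product, 0.0291 and 0.0337 in the same order, were over the threshold of 0.01. *Gab1*, an adaptor below EGFR, fell in both genotypes, with changes of -0.60 (adjusted p = 0.0158) in AhR KO skin and -0.80 (adjusted p = 0.00887) in AhR HET skin. The *Gab1* call was lost in 6 of 16 alternative settings in AhR KO skin and in 3 of 15 in AhR HET skin. The mean of its probe sets gave -0.33 in AhR HET skin (adjusted p = 0.104). *Akt1* rose by 0.96 (adjusted p = 0.0156) and *Stat3* by 0.95 (adjusted p = 0.03) in AhR KO skin, and *Sos1*, named after its value was seen to complete the count, had a called change of -0.59 there (adjusted p = 0.0164). Without AhR KO untreated replicate 3 the count in AhR KO skin was 1 of 14, without AhR KO IMQ replicate 1 it was 2 and without replicate 2 it was 2, with *Pik3r1* called in each. *Akt1* was then 0.71 to 0.87 and *Stat3* 0.65 to 0.91, and neither was called. *Akt1* measured 9.75, 10.08 and 8.9 in AhR KO IMQ replicates 1, 2 and 3, against 8.8, 8.71 and 8.34 in AhR KO untreated skin, so it was highest in the 2 arrays with the widest *Gapdh* gap. With the *Gapdh* covariate it was 0.43 and *Stat3* 0.75, and with AhR KO IMQ replicate 3 alone they were 0.29 and 0.62, with 1 of the 14 genes called in each of these fits. The mean of its probe sets gave 0.49 for *Akt1*, under the fold minimum.

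**Figure D5:**
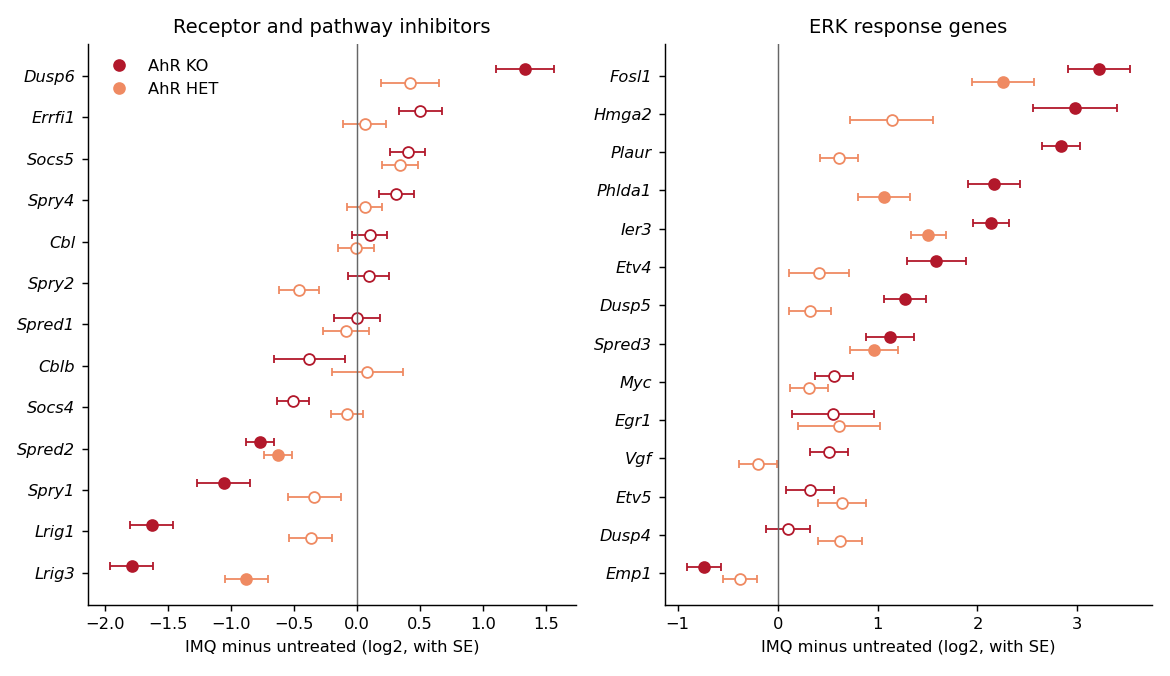
Change after IMQ (IMQ minus untreated, log2, horizontal axis) of the 13 inhibitors on the left and the 14 ERK response genes on the right, in AhR KO and AhR HET skin, with standard errors from limma; filled points were called. *Lrig1* and *Lrig3* had the lowest changes among the inhibitors in AhR KO skin, -1.63 and -1.79, and *Fosl1* the highest among the ERK response genes, 3.22.

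Genes that rise when the ERK kinases are active were the list with the most calls, and ERK activity itself was not measured. Of 14 measured, 8 were called higher and 1 lower in AhR KO skin after IMQ, where 22.7% of all genes were called. In AhR HET skin 4 were called higher and 0 lower, where 9.05% of all genes were called. The median change of the 14 was 1.2 in AhR KO skin and 0.62 in AhR HET skin, against 0.07 and -0.01 over all genes. The rank product called 3 in AhR KO skin and 1 in AhR HET skin, and with AhR KO IMQ replicate 3 alone 5 were called in AhR KO skin. *Fosl1*, an AP-1 subunit, measured 8.42, 8.57 and 7.62 in AhR KO IMQ skin, against 4.72, 5.11 and 5.11 in AhR KO untreated skin. It measured 7.23, 7.16 and 8.32 in AhR HET IMQ skin, against 5.0, 5.44 and 5.49 in AhR HET untreated skin, and its change was 3.22 in AhR KO skin (adjusted p = 2.17e-05) and 2.26 in AhR HET skin (adjusted p = 0.000831). *Phlda1* rose by 2.17 in AhR KO skin (adjusted p = 0.000104) and by 1.06 in AhR HET skin (adjusted p = 0.0225), *Ier3* by 2.14 (adjusted p = 6.57e-06) and 1.51 (adjusted p = 0.000294), and *Spred3* by 1.12 (adjusted p = 0.00406) and 0.96 (adjusted p = 0.0225). The AhR HET count of 4 was 2 without IMQ replicate 1 or 2 or untreated replicate 3, where *Fosl1* and *Ier3* were called, *Phlda1* was 0.89 to 1.03 and *Spred3* 0.79 to 0.93. The 1 gene lower in AhR KO skin, also named after its value was seen, was *Emp1*, with a change of -0.74 (adjusted p = 0.00761). *Egr1*, *Myc*, *Dusp4*, *Etv5* and *Vgf*, likewise named after their values were seen, were called after IMQ in neither genotype.

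*Plaur*, the urokinase receptor gene, which neutrophils and macrophages also express, measured 9.43, 9.83 and 9.86 in AhR KO IMQ skin, against 6.91, 7.01 and 6.69 in AhR KO untreated skin. In AhR HET skin it measured 7.76, 7.22 and 7.1 after IMQ, against 6.94, 6.62 and 6.7 without treatment. Its rise was 2.84 in AhR KO skin (adjusted p = 1.46e-06), against 0.61 in AhR HET skin (adjusted p = 0.0654). The gap between both responses, 2.23, was called (adjusted p = 0.0031), in all 20 alternative settings, at 2.1 to 2.43. Its AhR HET IMQ arrays followed the order of the neutrophil marker mean given above, and the part of neutrophils was not tested. On day 2, 5 of the 14 genes were called between the genotypes, where 3.98% of all genes were called. Higher in AhR KO skin were 4, *Plaur* at 2.35 (adjusted p = 6.07e-05), *Hmga2* at 1.64 (adjusted p = 0.0493), *Dusp5* at 0.84 (adjusted p = 0.0474) and *Ier3*, named to complete the count, at 0.72 (adjusted p = 0.043). Lower was 1, *Dusp4* at -1.10 (adjusted p = 0.0173). *Plaur* was the 1 of these called without AhR HET IMQ replicate 2 or 3 or AhR KO IMQ replicate 1 or 2, or with the *Gapdh* covariate, where *Hmga2* was 1.17 to 1.77, *Dusp5* 0.68 to 0.90 and *Dusp4* -1.11 to -0.98 with an array left out, and 1.63, 0.42 and -1.0 in the same order with the covariate. With AhR KO IMQ replicate 3 alone they were 1.41, 0.38 and -1.01, and 1 of the 14 genes was called, as with the rank product. The count was 3 without AhR HET IMQ replicate 1, and *Hmga2* also lost its call without AhR KO IMQ replicate 3 (1.75). *Hmga2* rose by 2.98 in AhR KO skin (adjusted p = 0.000319).

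Likeness to the pattern of a ligand was measured as the root mean square difference of log2 signals over the 12 arrays, after each gene's own mean was subtracted. The genes closest to *Epgn* were *Klk13* (0.54), *Slpi* (0.67) and *Lce3f* (0.69), of which *Lce3f* encodes a protein of the cornified envelope and *Slpi* a protease inhibitor. The genes closest to *Hbegf* were *Cxcl1* (0.37), which encodes a neutrophil chemokine, *Sh2d5* (0.45) and *Sirpb1a* (0.45), and those closest to *Btc* were *Abca5* (0.22), *Cdh4* (0.22) and *Gpha2* (0.28). For *Ereg*, added after its values were seen, they were *Il1f5* (0.31), the older symbol of the IL-36 receptor antagonist gene, *Atp13a5* (0.35) and *Cers4* (0.43), a ceramide synthase.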

How the data were processed

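The deposited values were log2 signals per probe set, which the authors had made from Affymetrix mouse genome arrays by RMA with the R package affy, whose version the sources used here do not give. This method subtracts background, brings all arrays to 1 distribution and combines each set's probes, and its signals understate large changes of dim genes. Of 45101 probe sets, 64 controls, 932 with several genes and 9160 with no symbol here were left out, and 34945 sets gave 18193 genes. Array medians lay between 7.38 and 7.56, and all 12 arrays were assigned to their groups from their labels.

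The 4 group means were fitted with limma 3.58.1 in R 4.3.3 (8 residual and 4.44 prior degrees of freedom), on all arrays. The p-values measure the spread between arrays labelled as biological replicates, and having 3 arrays a group limits the precision. Alternatives were quantile normalization again, median centring, the mean of probe sets, a mean signal of at least 5, no fold minimum, an adjusted p under 0.01, a variance trend with robust priors, groups alone, a replicate block, the *Gapdh* difference as a covariate, each array left out, and a rank product rewritten in Python 3.11.15 with numpy 2.4.6 (100 permutations). The rank product permuted the values of each array over genes, and its calls needed a 1.5-fold change and a proportion of false positives under 0.01. Some calls it lost lay under 0.05, such as *Lrig1* (0.043) and *Lrig3* (0.0282) after IMQ in AhR KO skin. Others did not, such as *Spry1* there (0.189). All probe sets, and AhR KO IMQ replicate 3 alone, were added after the values were seen. On simulated data limma recovered 58% of 2-fold and 96% of 4-fold changes between the genotypes on day 2, and 64% and 96% after IMQ in AhR KO skin. The simulated noise was independent between genes, and a smaller share of genes changed than was called in either comparison here. The adjustment of p-values depends on that share, so recovery in the real data may differ.

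The members and the gene lists were chosen with earlier results of these data known. The text names every member, up to 4 called genes of each pathway list per comparison (others, chosen after their values were seen, where a count of 5 or fewer needed them), and the 3 genes closest to each of the 3 members with the largest changes after IMQ. Sequences are RefSeq's. The probes of *Ahr* could not be placed against the deleted part, so its signal gives no check of the genotypes.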

Additional observations from a re-analysis of the deposited data

How the results depend on the processing

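Of 783 alternative values for 45 results of the 9 genes, 721 kept their direction and their side of the threshold, 33 lost a call, 8 gained one and 21 changed sign, of which 0 were called in the reported fit. In AhR KO skin 6 genes were called after IMQ, against 3 with the rank product, 3 with AhR KO IMQ replicate 3 alone, and 5 to 6 with an array left out. In AhR HET skin 5 were called, against 3 in the groups alone, 3 with the rank product, and 4 to 6 with an array left out. Between the genotypes on day 2, 1 was called, against 0 with the replicate block, with the *Gapdh* covariate, at an adjusted p under 0.01 and with AhR KO IMQ replicate 3 alone, and 0 to 1 with an array left out. Without treatment 0 were called, and 0 to 1 with an array left out, as for the difference between responses. Causes were not tested.

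The values that changed sign were called in neither fit. With the *Gapdh* covariate, *Ereg* after IMQ in AhR KO skin was -0.19, *Erbb2* between the genotypes on day 2 was -0.49 and its difference between responses was -0.33. With AhR KO IMQ replicate 3 alone these were -0.20, -0.53 and -0.34, and *Egf* between the genotypes on day 2 was 0.01. From the mean of probe sets *Egfr* was 0.03 after IMQ in AhR KO skin. With an array left out, *Ereg* ran from -0.07 to 0.37 and *Erbb2* from -0.20 to 0.25 after IMQ in AhR KO skin, *Tgfa* from -0.01 to 0.52, *Egfr* from -0.11 to 0.14 and *Erbb2* from -0.14 to 0.31 between the genotypes on day 2, and *Tgfa* from -0.31 to 0.12 and *Egf* from -0.14 to 0.57 without treatment.

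Whether the replicate numbers pair the arrays was not settled. Deviations from the group means correlated at -0.18 to 0.32 in 18 same-number pairs, over 0.1 in 7 of them. In pairs of other numbers they correlated at -0.36 to 0.24. With the replicate block *Ereg* between the genotypes on day 2 kept its difference of -1.55, with an adjusted p of 0.0574, and 0 of the 9 genes were called there. The block changed the call of no other of the 45 results. Of the 12 arrays 8 correlated best with an array of their own number.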
